A study of Rattus norvegicus with 30 samples.

Results

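The change of solvent-only hepatocyte cultures with time was described from 10 of the 30 arrays of a study of clofibrate, a lipid-lowering fibrate whose target is the nuclear receptor PPAR-alpha. All arrays whose titles name DMSO at a concentration of 1% were taken, 5 harvested 48 h and 5 harvested 24 h after dosing. The cells were primary hepatocytes of male Sprague Dawley rats, bought frozen, thawed, attached to collagen-coated wells and covered with Matrigel at 0.25 mg/ml, a basement membrane extract. They were dosed on day 3 of culture, so time after dosing and total time in culture advanced together and cannot be told apart. The DMSO 48 h cultures and the DMSO 24 h cultures received the solvent and no drug. The other 20 arrays came from cultures given 60 or 1000 uM clofibrate for 48 or 24 h, with 5 arrays in each group. The replicates were 5 separate wells per group, and the labels do not say how many animals gave the cells, so the p-values cover variation between wells.

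Hepatocytes taken out of the liver lose the hormones, blood flow and neighbouring cells that hold their specialised programme, and in culture many liver-specific transcripts decline over days. A Matrigel overlay is used to slow this loss. In male rats, pulses of growth hormone keep a set of male-type liver genes on, interleukin signals drive the acute phase proteins, and insulin, glucose and sterols control the genes of fat and cholesterol synthesis.

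The values are MAS5 signals, the linear brightness of a probe set after the authors' scaling of each array. Changes are differences of mean log2 signal, 48 h minus 24 h, tested with limma on all 30 arrays. A gene passed at an adjusted p under 0.05, with Benjamini-Hochberg adjustment over 18625 probe sets, of which 6.94% passed, 3.88% as higher and 3.07% as lower at 48 h. Of 10627 genes tested, 941 passed (8.85%), of which 542 were higher at 48 h (5.10%) and 399 were lower (3.75%). The counts of each gene list below are set beside these shares. The lists and their members were chosen with earlier results of these data known, so an excess over the shares is not a test. Only 22 of the higher genes and 25 of the lower genes moved by 2-fold or more. The median change was -0.00557 over all tested genes and -0.00952 over all probe sets. When the arrays were instead scaled to the poly-A spike-in controls, the median over probe sets was 0.145 and 92.8% of the calls were higher, so each direction given here is relative to the authors' scaling. Bulk signal cannot tell fewer cells of a type from less RNA per cell.

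Correlations of log2 signal were 0.964 to 0.976 between arrays of the same DMSO group and 0.959 to 0.973 between the DMSO times. Replicate 1 of DMSO 48 h stood apart, with a residual SD of 0.336 against 0.254 to 0.273 for the other 4 arrays of its group and 0.256 to 0.282 at 24 h. The 3'/5' signal ratio of actin, a measure of RNA integrity, was 2.11 to 2.45 at 48 h and 2.26 to 2.64 at 24 h. All 11 hepatocyte markers on the array lay above the background of bacterial control probe sets in both groups, and their summed signal was 493420 to 585554 at 48 h and 550788 to 610004 at 24 h. The 11 markers all had changes below 0, with 4 passing as lower (Hnf4a, Asgr1, Fga and Serpina1), and their median was -0.10 (0.05 with spike-in scaling). Albumin averaged 84568 ± 9379 at 48 h and 87492 ± 4340 at 24 h (SD, n = 5 each).

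**Figure D1:**
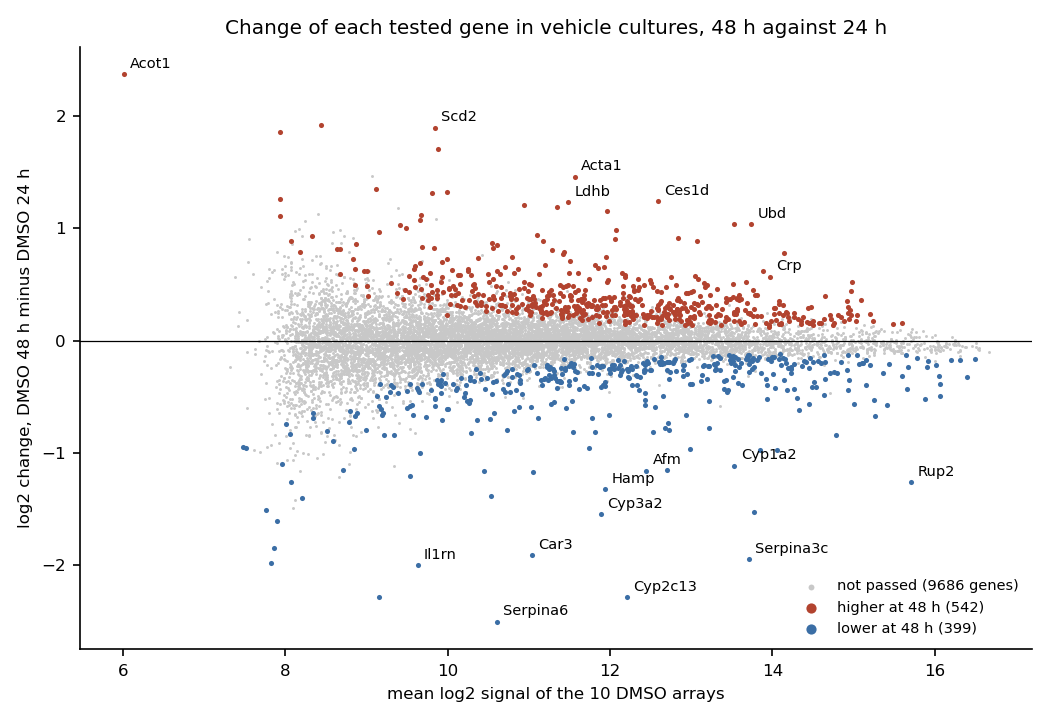
Each point is 1 of 10627 tested genes, placed by its mean log2 signal over the 10 DMSO arrays and its log2 change, DMSO 48 h minus DMSO 24 h. Red marks the 542 genes higher at 48 h, blue the 399 genes lower, grey the 9686 that did not pass. Falls past -1 reach into bright genes such as Rup2, Serpina3c and Cyp2c13, and the highest point, Acot1, is dim.

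Genes that depend on growth hormone or sex held several of the largest falls. Of 24 tested members, 7 fell and 0 rose, and their median change was -0.35. Cyp2c13, a male-specific cytochrome P450, had signals of 1700, 1931, 2273, 2551 and 2374 in DMSO 48 h, against 8749, 9903, 9924, 12609 and 11492 in DMSO 24 h. Serpina3c, a secreted serine protease inhibitor, had 5251, 6694, 7861, 7773 and 6882 at 48 h, against 22732, 26250, 25770, 28645 and 28628 at 24 h. Car3, a carbonic anhydrase abundant in male rat liver, had 956, 927, 1251, 1117 and 1195 at 48 h, against 3189, 4040, 4191, 4770 and 4302 at 24 h. In each of the 3 genes every 48 h array lay far below every 24 h array, and the lowest 24 h array was always replicate 1. The changes were -2.29 ± 0.11 for Cyp2c13, -1.95 ± 0.09 for Serpina3c and -1.91 ± 0.14 for Car3 (log2, SE; limma adjusted p 2.16e-16, 6.21e-17 and 1.63e-11). A further probe set of Car3 gave -0.75 and did not pass (adjusted p 0.293).

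Cyp3a2, a male-predominant P450, had signals of 1516, 2236, 2048, 2946 and 2633 at 48 h, against 5278, 6734, 5851, 8045 and 6915 at 24 h, a log2 change of -1.55 ± 0.12 (SE). Cyp2c12, the female-type P450 of steroid sulphates, was dim and also fell, by 1.21 on the log2 scale, to 518 ± 159 at 48 h, against 1141 ± 159 at 24 h (SD, n = 5 each). Falls were thus measured in P450s of both sex types. Obp3, a male rat urinary protein of the lipocalin family, averaged 35939 ± 2316 at 48 h and 53358 ± 2228 at 24 h. Rup2, annotated as a urinary protein and outside the list, averaged 34736 ± 3453 at 48 h and 83160 ± 5859 at 24 h, a change of -1.26 ± 0.08. Gstp3, a glutathione transferase of the pi class, stood among the largest falls of all genes at -2.29 ± 0.33, with 121, 247, 527, 143 and 517 at 48 h, against 1093, 1316, 1096, 1585 and 1289 at 24 h.

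**Figure D2:**
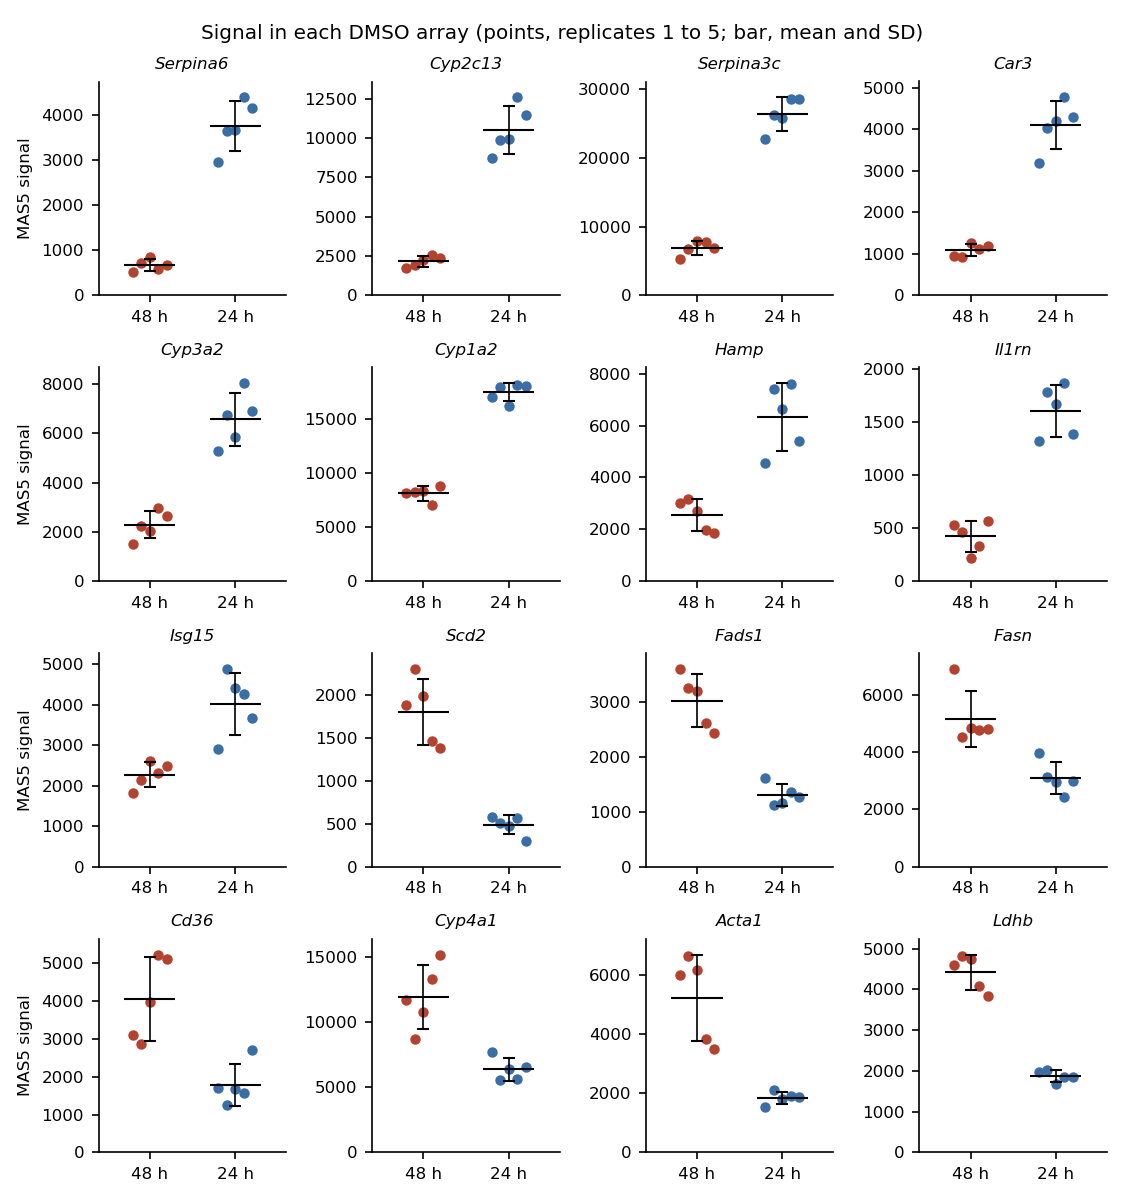
Each panel shows the MAS5 signal of 1 gene in the 5 DMSO 48 h arrays (red, left) and the 5 DMSO 24 h arrays (blue, right), with replicates 1 to 5 from left to right and the mean and SD in black. The 2 groups do not overlap in any of the 16 genes, but most of them were chosen by a rule that required this. Replicate 1 of Fasn, at 6911, stands above the other 48 h arrays.

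The wider set of drug-metabolising P450s lost signal at 48 h in 10 of 29 tested members and gained it in 2, with a median change of -0.12 (0.03 with spike-in scaling). Cyp1a2, which oxidises caffeine and is a target of the aryl hydrocarbon receptor, had 8144, 8208, 8286, 7008 and 8778 at 48 h, against 17025, 17887, 16212, 18136 and 18048 at 24 h. The spread within each time was small beside the gap, and the log2 change was -1.11 ± 0.08 (SE, limma adjusted p = 1.2e-12). Cyp2c7, a P450 that oxidises retinoic acid, averaged 1420 ± 188 at 48 h and 3190 ± 406 at 24 h. The list of conjugating enzymes, which attach glutathione, sulphate or glucuronic acid to drugs, went the other way, with 10 of 34 higher and 2 lower. With spike-in scaling 15 were higher and 0 lower, where 92.8% of all calls were higher. With only the DMSO arrays in the fit 6 were higher and 1 lower. The list does not hold Gstp3, the glutathione transferase that changed by -2.29. Gstm7, a glutathione transferase, averaged 3734 ± 330 at 48 h and 2294 ± 281 at 24 h. Ugt2b10, a glucuronosyltransferase, averaged 3270 ± 531 at 48 h and 2330 ± 218 at 24 h. Ces1d, a carboxylesterase that cleaves esters of drugs and lipids, had 9296, 8313, 8217, 11078 and 11025 at 48 h, against 4435, 4239, 3684, 3842 and 3973 at 24 h, and its change of 1.24 ± 0.09 was among the largest rises.

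Secreted carriers of the blood plasma fell in 10 of 29 tested members and rose in 1, with a median of -0.10 (0.05 with spike-in scaling). Serpina6 encodes corticosteroid-binding globulin, the plasma carrier of glucocorticoids. Its signals were 521, 716, 852, 577 and 660 at 48 h, against 2945, 3633, 3670, 4389 and 4147 at 24 h. This 5.68-fold drop in mean log2 signal was the largest fall among all genes that passed with no overlap between the groups (-2.51 ± 0.13, limma adjusted p = 3.8e-15). Afm, afamin, a carrier of vitamin E, averaged 3775 ± 524 at 48 h and 8362 ± 249 at 24 h. Apoa2, an apolipoprotein of high-density lipoprotein, averaged 21112 ± 1789 at 48 h and 37830 ± 1592 at 24 h. The enzymes that remodel lipoproteins in plasma fell too, with Lcat at -0.60 ± 0.06 and hepatic lipase, Lipc, at -0.66 ± 0.05.

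Proteins of the acute phase, the liver's response to inflammation, held more lower than higher genes at 48 h. Of 27 tested, 12 fell, 2 rose and 13 did not pass, with a median of -0.18 (-0.02 with spike-in scaling). Hamp, hepcidin, the hormone that blocks iron export, had 3029, 3179, 2696, 1970 and 1867 at 48 h, against 4579, 7410, 6661, 7634 and 5411 at 24 h, a change of -1.32 ± 0.15. Serum amyloid Saa3, which the list does not hold, averaged 933 ± 176 at 48 h and 2403 ± 155 at 24 h. A2m, alpha-2-macroglobulin, the main acute phase protein of the rat, averaged 58014 ± 3016 at 48 h and 81706 ± 6741 at 24 h. Serpina3n, a protease inhibitor, changed by -0.52 ± 0.04. Crp, C-reactive protein, moved against the list, with 19308, 18016, 17993, 21021 and 21854 at 48 h, against 14258, 12584, 13964, 11875 and 13451 at 24 h (0.57 ± 0.09, limma adjusted p = 2.75e-05).

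Complement and coagulation genes fell in 12 of 38 tested members and rose in 1, with a median of -0.15 (0.00 with spike-in scaling). The 12 include C1qa and C1qc, which are counted again among the macrophage markers below. C9 and C8g, parts of the pore-forming membrane attack complex, changed by -0.81 ± 0.07 and -0.62 ± 0.03. C8g averaged 16661 ± 611 at 48 h and 25578 ± 909 at 24 h, and C4bpb, the beta chain of a complement inhibitor, averaged 1755 ± 160 at 48 h and 2823 ± 245 at 24 h. Among NF-kB and interleukin-1 response genes, 7 of 32 fell and 2 rose, with a median of -0.14 (0.01 with spike-in scaling). Il1rn, the secreted antagonist of the interleukin-1 receptor, had 530, 465, 216, 327 and 564 at 48 h, against 1316, 1787, 1673, 1867 and 1383 at 24 h, a change of -2.0 ± 0.30. The lowest 24 h array was more than 2-fold above the highest 48 h array. Cxcl1, a chemokine that attracts neutrophils, averaged 959 ± 238 at 48 h and 2109 ± 274 at 24 h. Nfkbiz, a nuclear partner of NF-kB that is induced by interleukin-1, averaged 2483 ± 340 at 48 h and 4828 ± 726 at 24 h, and its other probe set gave -0.43 and did not pass (adjusted p 0.696). Cxcl16, a membrane-bound chemokine outside the list, moved the other way at 1.16 ± 0.09, with 5980 ± 685 at 48 h and 2681 ± 311 at 24 h.

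Genes induced by interferon fell in 8 of 29 tested members and rose in 0, with a median of -0.19 (-0.04 with spike-in scaling). Isg15, a ubiquitin-like modifier, had 1817, 2144, 2596, 2313 and 2480 at 48 h, against 2904, 4883, 4400, 4251 and 3661 at 24 h (-0.81 ± 0.16, limma adjusted p = 0.000951). Usp18, the protease that removes Isg15 from proteins, changed by -0.82 ± 0.15. Irf7, a transcription factor of the interferon response, had 2268, 2304, 2972, 2337 and 2534 at 48 h, against 3094, 4173, 3216, 4402 and 3222 at 24 h. Bst2, tetherin, which holds budding viruses at the cell surface, averaged 16956 ± 1362 at 48 h and 24352 ± 3781 at 24 h. In each of the 4 genes the groups did not overlap, and replicate 1 was the lowest 24 h array of Isg15, Usp18 and Irf7.

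Promoter sequences of genes that fell together are shown for the textbook binding elements of their pathways. They come from RefSeq on build GRCr8, and the searched windows run from 250 bases before to 50 bases after each start. The interferon-stimulated response element was searched as GAAA, any 2 bases and GAAA, the STAT site as TTC, any 3 bases and GAA, and the endoplasmic reticulum stress element as CCAAT, any 9 bases and CCACG, each on both strands, and capitals mark the matches. The stretches lie at chr1:205800024-205800123 (minus strand) for Irf7, chr16:18255028-18255127 (minus) for Bst2, chr1:95300332-95300431 (minus) for Hamp and chr14:84604523-84604622 (plus) for Xbp1, and they are written 5′ to 3′ in the direction of the gene.
Irf7: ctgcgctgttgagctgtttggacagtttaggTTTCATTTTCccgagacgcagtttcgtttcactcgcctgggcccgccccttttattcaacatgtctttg
Bst2: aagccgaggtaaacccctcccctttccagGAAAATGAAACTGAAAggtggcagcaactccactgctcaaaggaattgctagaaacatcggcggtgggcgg
Hamp: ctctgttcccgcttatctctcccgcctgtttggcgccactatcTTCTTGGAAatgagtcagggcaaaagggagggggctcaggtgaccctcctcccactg
Xbp1: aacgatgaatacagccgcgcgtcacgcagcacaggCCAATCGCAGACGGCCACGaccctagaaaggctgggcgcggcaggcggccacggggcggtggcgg
The interferon element was present in 16 of 24 interferon genes with a promoter in the table (3.92% of all 33469 promoters hold it), and in 3 of the 5 that fell. Irf7 holds it 69 bases before its start, on the opposite strand, and Bst2 holds 2 overlapping matches, 131 and 125 bases before its start. The STAT letters were found in 5 of 24 acute phase genes, all among the 11 that fell, against 8.87% of all promoters, with the Hamp match 117 bases before the start. The stress element was found in 8 of 29 genes of protein folding, 3 of them among the 12 that fell, against 0.0657% of all promoters. A match describes the letters only and is not evidence of binding.

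The genes of the endoplasmic reticulum, where secreted proteins are folded, fell in 13 of 34 tested members and rose in 0, with a median of -0.14. The falls were small. Xbp1, the transcription factor that expands the secretory machinery, had 16723, 17509, 16751, 17218 and 17492 at 48 h, against 19396, 19283, 18936, 20316 and 20624 at 24 h, with no overlap and a change of -0.20 ± 0.03 (limma adjusted p = 7.38e-05). Sdf2l1, a cofactor of the chaperone system, averaged 2130 ± 121 at 48 h and 2722 ± 133 at 24 h. With spike-in scaling the list's median was 0.01 and 0 members fell, and with each array centred on its median 4 fell.

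Among the transcription factors of hepatocyte identity, 5 of 34 fell and 1 rose, with a median of -0.08 (0.07 with spike-in scaling). Hnf4a, the nuclear receptor that holds much of the hepatocyte programme, had 9654, 9092, 8884, 10658 and 9732 at 48 h, against 12324, 11917, 11058, 12682 and 13804 at 24 h (-0.36 ± 0.05, limma adjusted p = 9.8e-06). Its groups did not overlap, but with spike-in scaling the adjusted p was 0.156, and its 2 other probe sets gave 0.09 and -0.19 with adjusted p of 0.762 and 0.374. Klf9 changed by -0.26 ± 0.06, Klf15 by -0.26 ± 0.07 and Cebpb, a driver of acute phase genes, by -0.25 ± 0.06, besides Xbp1. The adjusted p of Cebpb was 0.0796 with only the DMSO arrays and 0.484 with spike-in scaling, and that of Klf15 was 0.539 with spike-in scaling and 0.11 with median centring. Creb3l3, a liver factor of lipid metabolism, rose by 0.17 ± 0.05, and its adjusted p was 0.0506 to 0.122 with only the DMSO arrays, with median centring or without replicate 5 of 48 h or replicate 4 of 24 h. The adjusted p of Klf15 was 0.0591 to 0.0593 without replicate 2 of 48 h or replicate 1 of 24 h. Without replicate 1 of 48 h, 5 interferon genes and 1 conjugating enzyme were lower and 1 NF-kB gene was higher. With spike-in scaling the number of lower genes was 5 for acute phase, 5 for complement and coagulation, 3 for NF-kB, 4 for interferon and 0 for hepatocyte transcription factors.

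**Figure D3:**
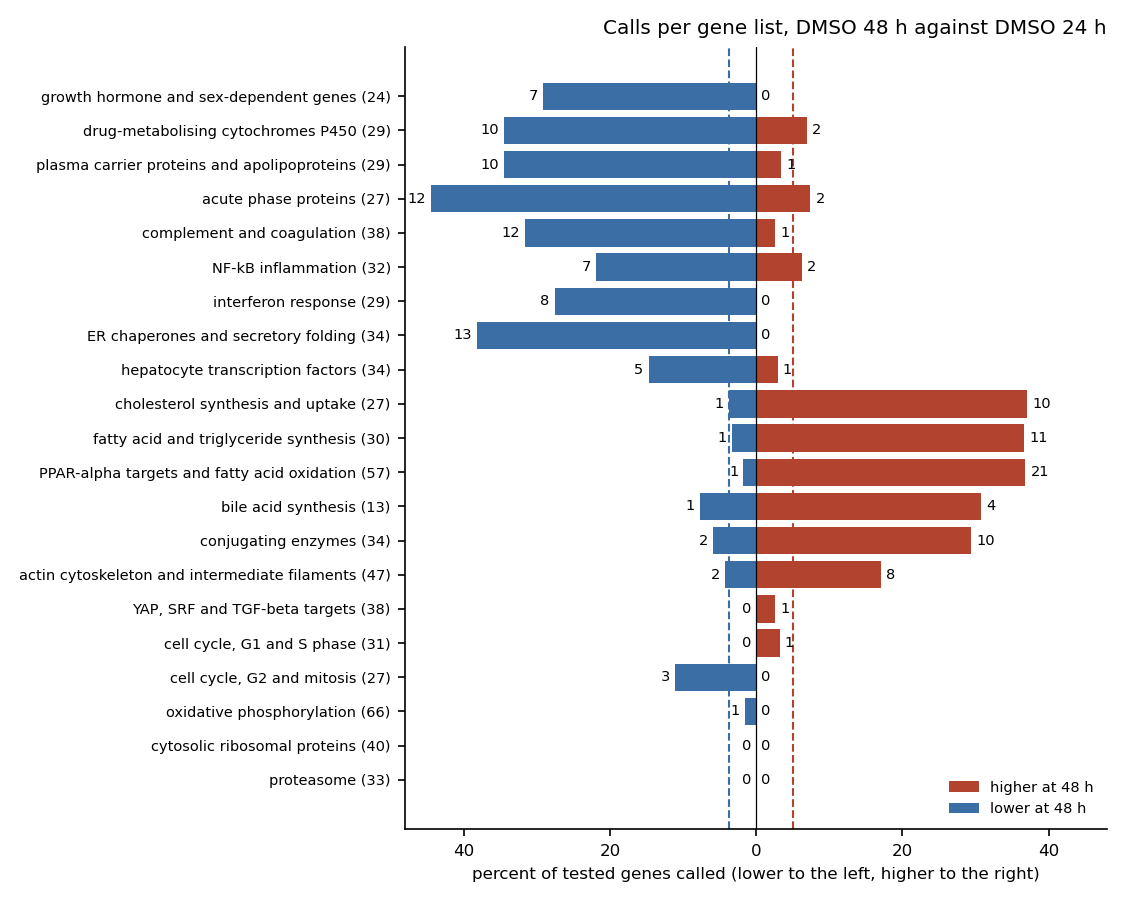
Bars give the percent of each list's tested genes (number in brackets) that passed as higher (red, right) or lower (blue, left) in DMSO 48 h against DMSO 24 h, with the number of genes at the bar's end. Dashed lines mark the shares over all 10627 genes, 5.10% higher and 3.75% lower, and the bars of the secretory and inflammatory lists extend left while those of the lipid lists extend right.

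The lists of lipid metabolism held more higher than lower genes at 48 h. In the synthesis of fatty acids and triglycerides, 11 of 30 tested genes rose and 1 fell, with a median of 0.20. Scd2, a desaturase that makes monounsaturated fatty acids, had 1886, 2311, 1993, 1468 and 1388 at 48 h, against 581, 512, 478, 571 and 304 at 24 h, a change of 1.90 ± 0.17 (limma adjusted p = 7.03e-10). A further probe set of Scd2 gave 0.26 and did not pass (adjusted p 0.519). Fads1, which introduces a double bond in the synthesis of arachidonic acid, had 3595, 3248, 3196, 2617 and 2420 at 48 h, against 1603, 1119, 1159, 1350 and 1274 at 24 h. Fasn, fatty acid synthase, had 6911, 4528, 4839, 4789 and 4803 at 48 h, against 3956, 3128, 2967, 2431 and 2987 at 24 h. All 3 were free of overlap, with replicate 1 the highest 24 h array of Fads1 and Fasn. The changes of Fads1 and Fasn were 1.21 ± 0.11 and 0.74 ± 0.11. Acly, which makes cytosolic acetyl-CoA from citrate, changed by 0.40 ± 0.06, and Pnpla3, a lipid droplet protein, by 0.87 ± 0.14. The 1 member that fell was Scd, a further desaturase gene, at -0.24, which is named after its value was seen.

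Of the 27 tested genes of cholesterol synthesis and uptake, 10 rose and 1 fell, with a median of 0.16. Dhcr7, the last enzyme of the pathway through 7-dehydrocholesterol, averaged 14014 ± 441 at 48 h and 9890 ± 512 at 24 h. Msmo1, which removes methyl groups from sterol intermediates, averaged 16590 ± 946 at 48 h and 12493 ± 294 at 24 h. Tm7sf2, a sterol reductase of the same pathway, fell by 0.53 on the log2 scale, with 4623 ± 473 at 48 h and 6668 ± 285 at 24 h. In bile acid synthesis, 4 of 13 tested genes rose and 1 fell. Slc27a5 and Baat, which activate bile acids and join them to amino acids, changed by 0.54 ± 0.08 and 0.44 ± 0.09. Hsd3b7 and Cyp27a1, which act on the sterol ring and side chain, changed by 0.28 ± 0.05 and 0.23 ± 0.04. Acox2, the peroxisomal oxidase that shortens the side chain, changed by -0.39 ± 0.08.

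Targets of PPAR-alpha and genes of fatty acid oxidation were higher in 21 of 57 tested members and lower in 1, with a median of 0.15, in cultures that received no clofibrate. With spike-in scaling, where 92.8% of all calls were higher, 32 were higher and 0 lower. With median centring 17 were higher and 0 lower, and with only the DMSO arrays in the fit 11 were higher and 0 lower. Cyp4a1, the fatty acid omega-hydroxylase used as a marker of PPAR-alpha activity in rat liver, had 11724, 8707, 10785, 13338 and 15208 at 48 h, against 7735, 5566, 6410, 5647 and 6580 at 24 h (0.89 ± 0.09, limma adjusted p = 3.26e-08). Cd36, a fatty acid transporter, had 3090, 2851, 3961, 5226 and 5119 at 48 h, against 1703, 1249, 1672, 1560 and 2710 at 24 h. The groups did not overlap in either gene, although the lowest 48 h array of Cd36 came close to replicate 5 of 24 h. Vnn1, a pantetheinase, averaged 5878 ± 597 at 48 h and 3151 ± 439 at 24 h. Ehhadh, an enzyme of peroxisomal beta-oxidation, averaged 2344 ± 278 at 48 h and 1505 ± 163 at 24 h. The largest log2 change of the list was that of Acot1, an acyl-CoA thioesterase, with 739, 104, 101, 78 and 111 at 48 h, against 92, 12, 10, 20 and 80 at 24 h. Its mean log2 signal at 24 h lay under the background of the bacterial control sets, and the groups overlapped. Its change of 2.37 rested in part on replicate 1 of 48 h and was 1.79 without it, and the adjusted p was 0.259 with only the DMSO arrays in the fit.

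The cytoskeleton list held 8 higher and 2 lower genes of 47 tested, with a median of 0.04. Over all genes 5.10% were higher and 3.75% lower, and the lower count of this list is near that share. Acta1, the alpha-actin of skeletal muscle, had 5993, 6628, 6169, 3818 and 3487 at 48 h, against 1529, 2111, 1795, 1906 and 1870 at 24 h. Replicates 4 and 5 were lower than the other 48 h arrays but above all 24 h arrays, and the change was 1.46 ± 0.14. Tagln2, an actin-binding protein, averaged 8423 ± 1008 at 48 h and 5669 ± 515 at 24 h, and S100a11, a calcium-binding protein, averaged 38894 ± 2633 at 48 h and 27226 ± 2792 at 24 h. Of 38 tested targets of YAP, SRF and TGF-beta, 1 rose and 0 fell, both below the shares over all genes (5.10% and 3.75%). The gene that rose was Ccn2, a matrix-associated growth regulator, which averaged 11054 ± 879 at 48 h and 8341 ± 231 at 24 h. Tgfb2, of the same list, did not pass in its brightest probe set (0.62, limma adjusted p = 0.47), but its other tested probe set passed as higher at 2.39. In the matrix list 5 of 43 genes rose and 4 fell, against 5.10% and 3.75% of all genes. Serpine2, an inhibitor of thrombin and plasminogen activators, had 1464, 1527, 1552, 1894 and 1676 at 48 h, against 682, 405, 760, 673 and 793 at 24 h (1.32 ± 0.11). Plat, the tissue plasminogen activator, changed by 0.73 ± 0.13. Timp1, an inhibitor of matrix metalloproteinases, changed by -0.71 ± 0.16, and Vtn, vitronectin, by -0.53 ± 0.04.

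Other large rises lay outside these lists or alone in them. Ldhb, the heart-type subunit of lactate dehydrogenase, had 4596, 4828, 4754, 4091 and 3829 at 48 h, against 1974, 2030, 1676, 1850 and 1852 at 24 h, a change of 1.23 ± 0.06 (limma adjusted p = 1.3e-15). Rcan1, an inhibitor of the phosphatase calcineurin, had 17717, 16263, 16752, 16881 and 17077 at 48 h, against 7783, 7554, 9480, 8062 and 8509 at 24 h. Ubd, a ubiquitin-like modifier, averaged 19674 ± 1936 at 48 h and 9594 ± 971 at 24 h. The arrays of each time lay close together in Ldhb and Rcan1, and the gap between the times was several times their spread. Clec14a, a lectin known from endothelial cells, averaged 1421 ± 116 at 48 h and 576 ± 102 at 24 h. Sox4, a transcription factor of progenitor cells, averaged 804 ± 119 at 48 h and 413 ± 74 at 24 h, and its 2 other probe sets gave -0.10 and 0.21 with adjusted p of 0.876 and 0.685. Slc2a13, a transporter of myo-inositol, changed by 1.00 ± 0.21, Lmcd1, a LIM domain protein, by 1.07 ± 0.16, and Tsx, an X-linked gene known from testis, by 1.71 ± 0.17. Among the dimmer of the largest rises, Piezo1, a mechanically gated ion channel, had 434, 412, 619, 464 and 418 at 48 h, against 323, 79, 54, 319 and 79 at 24 h. Lad1, a basement membrane protein, changed by 1.92 ± 0.54, and its adjusted p was 0.0515 to 0.0959 without replicate 1 or 2 of 48 h or replicate 1 of 24 h. Plcl2 changed by 1.11 ± 0.31, and its adjusted p was 0.0553 to 0.0745 without replicate 1 of 48 h or replicate 3 or 4 of 24 h.

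In cell division, of 31 tested genes of G1 and S phase, 1 rose and 0 fell, and of 27 genes of G2 and mitosis 3 fell and 0 rose. Over all genes 5.10% rose and 3.75% fell, and the G1 and S phase counts lie below these shares. Spc24, a kinetochore protein, had 1027, 1173, 1212, 1329 and 1338 at 48 h, against 2082, 1875, 1949, 1804 and 1794 at 24 h, a change of -0.65 ± 0.07. Cyclin B1, Ccnb1, at -0.63 ± 0.19, and the kinesin Kif22, at -0.66 ± 0.20, were dim. Without single arrays their adjusted p was 0.0706 to 0.142 for Ccnb1 (replicates 1, 3 and 5 of 48 h and 2, 3 and 4 of 24 h) and 0.0559 to 0.14 for Kif22 (replicates 2, 3 and 4 of 48 h and 2, 3, 4 and 5 of 24 h). Cdk4, a kinase of G1 entry, changed by 0.40 ± 0.11, and its adjusted p was 0.0778 without replicate 4 of 48 h. The cytosolic ribosomal proteins (40 tested) and the proteasome (33 tested) held 0 calls in the limma fit, with 2 and 4 members at an unadjusted p under 0.05. Oxidative phosphorylation held 1 call in 66 genes, Ndufa4 at -0.18 ± 0.05. The adjusted p of Ndufa4 was 0.0556 to 0.122 without replicate 1, 2, 3 or 4 of 48 h or replicate 2, 3, 4 or 5 of 24 h.

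Markers of macrophages, the immune cells that reside in the liver and can remain in hepatocyte preparations, were lower at 48 h. Of 13 tested, 3 fell and 0 rose, with a median of -0.44, and the sum of the 16 markers on the array was 25892 to 29853 at 48 h and 31397 to 32791 at 24 h. Cd14 and Lyz2 made up most of this sum. Without them the other 14 markers summed to 5448 to 6886 at 48 h and 8274 to 8926 at 24 h, a split chosen after the values were seen. C1qa, a chain of complement C1q made by macrophages, had 521, 644, 416, 407 and 461 at 48 h, against 820, 931, 824, 945 and 807 at 24 h (-0.84 ± 0.19, limma adjusted p = 0.00391). Cd68, a lysosomal protein, averaged 1283 ± 257 at 48 h and 1774 ± 233 at 24 h, and its adjusted p was 0.0517 with only the DMSO arrays and 0.0984 with spike-in scaling, which left 1 of the 13 markers lower. C1qc changed by -0.58 ± 0.18, and its adjusted p was 0.0614 to 0.176 without replicate 1, 2, 4 or 5 of 48 h or replicate 3, 4 or 5 of 24 h. Clec4f, the lectin of resident liver macrophages, averaged 381 ± 243 at 48 h and 662 ± 159 at 24 h and did not pass (limma adjusted p = 0.0799). Cd5l, a protein that macrophages secrete but not a member of the marker list, changed by -1.26 ± 0.34. Its adjusted p was 0.0535 without replicate 1 of 48 h (change -0.77), 0.0553 without replicate 2 of 24 h and 0.141 with only the DMSO arrays in the fit. Of 7 tested endothelial markers 1 fell, 0 rose and 6 did not pass, with a median of -0.26 and Egfl7 the highest at 0.21. The marker that fell was Lyve1, which averaged 375 ± 79 at 48 h and 593 ± 82 at 24 h. Its adjusted p was 0.0567 without replicate 1 of 48 h, and it did not pass with only the DMSO arrays or with spike-in scaling. The sum of the 13 endothelial markers on the array was 3702 to 4471 at 48 h and 4428 to 4869 at 24 h. The part of the macrophage markers in the falls of complement, interleukin-1 and interferon genes was not tested.

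**Figure D4:**
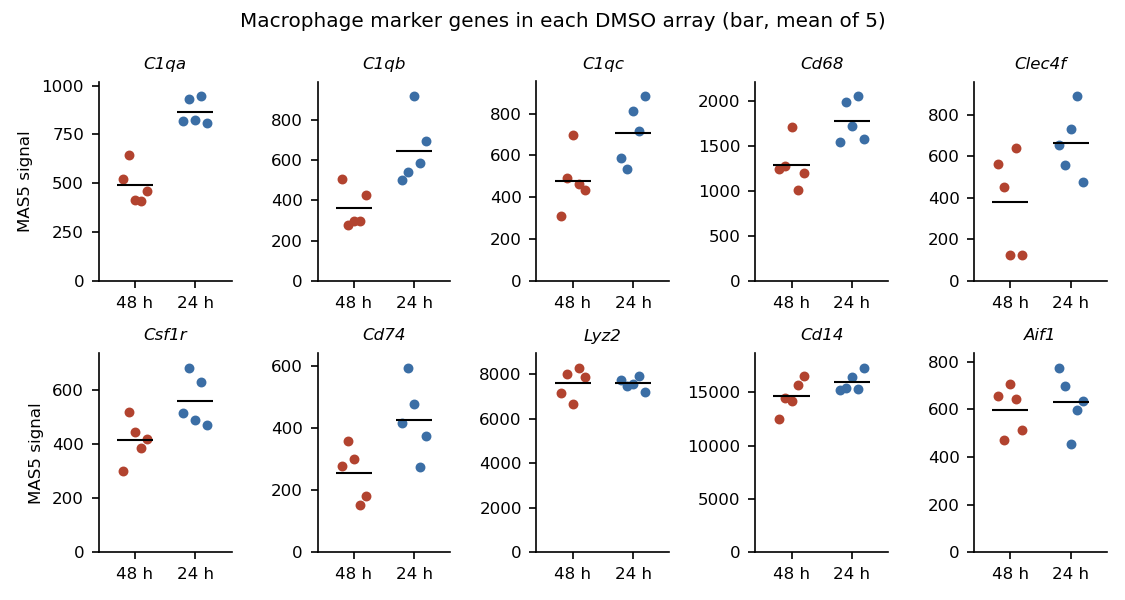
Each panel shows the MAS5 signal of 1 macrophage marker in the 5 DMSO 48 h arrays (red, left) and the 5 DMSO 24 h arrays (blue, right), with the mean as a bar. C1qa does not overlap between the times, while Lyz2, with means of 7598 at 48 h and 7584 at 24 h, overlaps.

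The cultures given clofibrate share no array with the DMSO cultures and passed through the same 2 harvests. Of the 542 genes that rose with time in DMSO, 304 also rose at 60 uM, which is 56.1% of the DMSO list and 50.7% of the 60 uM list, where 5.65% of all genes rose. Of the 399 that fell in DMSO, 232 also fell at 60 uM (58.1% and 43.1% of the lists), where 5.06% of all genes fell. At 1000 uM, 294 of the 542 rose (54.2% and 23.4%) and 235 of the 399 fell (58.9% and 16.2%), with 11.8% of all genes rising and 13.7% falling. In the opposite direction, 0 of the 542 and 2 of the 399 passed at 60 uM, and 26 and 25 at 1000 uM. Across the 10627 genes the time changes in DMSO and in the treated cultures had a Pearson correlation of 0.448 at 60 uM and 0.362 at 1000 uM, given as a description.

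The fall of Serpina6 was -2.51 ± 0.13 in DMSO, -2.52 at 60 uM and -2.09 at 1000 uM, that of Serpina3c -1.95, -1.99 and -2.0, and that of Hamp -1.32, -1.29 and -1.34. The rise of Acta1 was 1.46, 1.80 and 1.71, and that of Ces1d 1.24, 1.36 and 1.32. Each of these time changes passed at every dose, and the difference from DMSO did not pass in any of them at 1000 uM. The time change differed from that in DMSO for 16 genes at 60 uM (0.151% of those tested) and for 1149 at 1000 uM (10.8%). Afm fell by 1.16 in DMSO and by 0.44 at 60 uM, and at 1000 uM its change was -0.05, a difference from DMSO of 1.11 ± 0.09 (limma adjusted p = 6.22e-10). Cyp3a2 changed by -1.55 in DMSO, -0.85 at 60 uM and -0.15 at 1000 uM. Spc24 changed by -0.65 in DMSO, -0.26 at 60 uM and 0.67 at 1000 uM, so that it rose with time at the higher dose. A2m fell by 0.49 in DMSO, 0.88 at 60 uM and 1.94 at 1000 uM. Cyp4a1 changed by 0.89 in DMSO, 0.52 at 60 uM and 0.23 at 1000 uM, and Rcan1 by 1.04, 0.64 and 0.19. For Cyp3a2, Spc24, A2m, Cyp4a1 and Rcan1 the difference from DMSO passed at 1000 uM. At 60 uM it did not pass in any of them (limma adjusted p 0.157, 0.173, 0.118, 0.452 and 0.213).

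**Figure D5:**
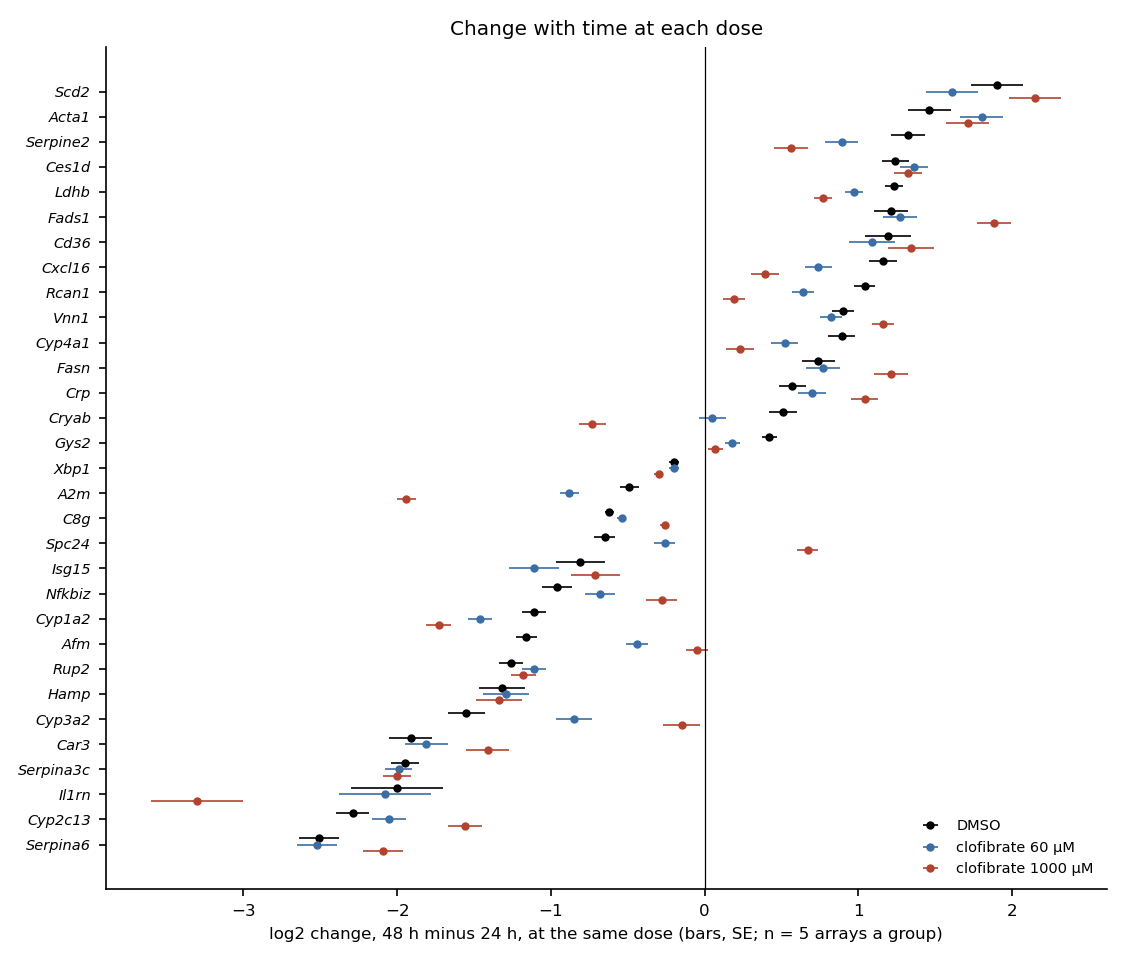
Points give the log2 change, 48 h minus 24 h, of 31 genes in DMSO (black), 60 uM clofibrate (blue) and 1000 uM clofibrate (red), with bars for the SE and 5 arrays in each group. Serpina3c, Hamp and Ces1d lie close together at the 3 doses, while Afm, Cyp3a2, A2m, Spc24, Cryab and Rcan1 spread apart.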

How the data were processed

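Biotin-labelled RNA of each culture was measured on 1 Affymetrix rat array, per the labels' protocols. The values are probe set intensity on a linear scale, deposited by the authors and made with MAS5, per the submitters' processing notes, whose version was not given in the sources used here. With the highest and lowest 2% left out, every array had a mean of 1501, so a change in total RNA per cell is hidden. Groups came from the labels.

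Log2 of the signal was taken as it stands. Of 31042 probe sets that are not controls, the 18625 above the 40th percentile of mean signal (log2 8, a signal of 255) were tested in 1 limma 3.58.1 fit (R 4.3.3) with a mean per group over all 30 arrays, an intensity trend and Benjamini-Hochberg adjustment. All adjusted p-values are limma's. The fit was tested on simulated data, where it recovered 88% of 100 probe sets changed by 1 on the log2 scale and 55% of those changed by 0.5, with 7 false calls. A single symbol was available for 20826 probe sets, and 20758 of these matched a gene identifier of the GRCr8 table. A gene is its brightest tested probe set. Of 46 other tested probe sets of named genes that passed, 13 passed in the same direction and 0 in the opposite one. Background was each array's highest signal among the bacterial TrpnX sets, averaged over a group. Precision is limited by the 5 arrays of a group.

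The text names, by rule, the 20 largest rises and 20 largest falls among genes that passed with 5 arrays beyond the other 5 and no provisional symbol, up to 6 members of each of 46 gene lists by size of change with passing ones first, and defining cell type markers. The members and lists were chosen with earlier results of these data known. Alternatives were another filter or none, only the DMSO arrays, median centring, quantile normalization, spike-in scaling, an added constant of 100, other variance settings, array weights, other probe sets, leaving out each DMSO array, and a block of title serial numbers added after seeing the data. No sample was left out, and no genome position of a probe set is given, since no source used here names the array's build.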

Additional observations from a re-analysis of the deposited data

Results flagged for a closer look

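In 210 groups of 5 arrays looked at, 15 held an array far from the others by Dixon's test at 95%, a rule that chance meets in about 1 in 20 groups. Of the 15, 7 fell on replicate 1 of DMSO 48 h, the array with the widest residuals. That array read 23039 in Ubd (the next highest was 19352), 6911 in Fasn, 739 in Acot1, 35 in Cpe, 44 in Cd5l, 28708 in Rup2 and 1924 in Sdf2l1, the last 4 below their groups. A further array, replicate 2 of DMSO 48 h, read 241 in Cyp2c12. In DMSO 24 h, replicate 1 read 48 in Lad1 and 6844 in C9, both low, and 6255 in Baat, high. Replicate 2 of DMSO 24 h was low in Serpine2 (405), Msmo1 (11983) and Ehhadh (1222), and replicate 5 was high in Hsd3b7 (14089).

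The time change differed from that in DMSO at 1000 uM for 32 of 105 named genes checked, by the limma test of the difference. It is given here as the log2 time change at 1000 uM minus that in DMSO. Asgr1, named as a hepatocyte marker and not among the 105, also differed, at 0.46 (limma adjusted p = 5.26e-07). Among genes that fell in DMSO, the difference was positive for Cyp3a2 (1.40), Spc24 (1.32), Afm (1.11), Cyp2c13 (0.72), Acox2 (0.70), Nfkbiz (0.68), C8g (0.36), Ndufa4 (0.35) and Spink1l (0.24), and negative for A2m (-1.45), Gpc4 (-0.67), Cyp1a2 (-0.61) and Serpina3n (-0.25). Among genes that rose in DMSO, it was negative for Cryab (-1.24), Rcan1 (-0.85), Cxcl16 (-0.77), Serpine2 (-0.76), Plat (-0.70), Cyp4a1 (-0.66), Psat1 (-0.53), Ldhb (-0.47), S100a11 (-0.42), Abcc3 (-0.40), Hsd3b7 (-0.36) and Gys2 (-0.35). It was positive for Pnpla3 (0.71), Fads1 (0.67), Csad (0.66), Gstm7 (0.66), Fasn (0.47), Crp (0.47) and Acly (0.28). At 60 uM the difference passed for 1 named gene, Afm, at 0.72 ± 0.09 (limma adjusted p = 0.00014).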

How the results depend on the processing

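The counts below are of probe sets passing in limma, higher and then lower at 48 h. In DMSO the fit gave 722 and 571, and leaving out each DMSO array gave 576 to 691 and 442 to 547. With only the DMSO arrays the counts were 438 and 320, with median centring 709 and 306 (69.9% higher) and with spike-in scaling 1567 and 121. At 60 uM they were 887 and 735, against 468 and 875 with median centring and 602 and 172 with spike-in scaling. At 1000 uM they were 1845 and 2049, against 1862 and 671 with spike-in scaling. The difference of time change from DMSO passed for 7 and 9 at 60 uM, against 4 and 11 with median centring, 11 and 14 with quantile normalization and 1 and 7 with spike-in scaling. At 1000 uM it passed for 776 and 768, against 370 and 841 with median centring and 160 and 386 with spike-in scaling. The cause of these moves was not tested.

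Of 105 named genes that were checked, 13 lost their call when 1 DMSO array was left out. With only the DMSO arrays 14 lost it, among them Lyve1, Clock, Tef, Ccnb1 and Kif22. Spike-in scaling removed 15 of these calls and median centring 7. Asgr1 and Serpina1, named as hepatocyte markers, were not among the 105. Their highest limma adjusted p across the alternatives was 0.616 and 0.918, and that of Serpina1 was 0.097 without replicate 1 of 48 h. With spike-in scaling the adjusted p was 0.764 for Xbp1, 0.47 for Klf9, 0.233 for Sdf2l1, 0.231 for Acox2 and 0.0556 for Hal. Another probe set turned the direction, without passing, in Hnf4a (0.09), Tef (-0.09) and Sox4 (-0.10). A further probe set kept the direction, also without passing, in Hnf4a (-0.19) and Sox4 (0.21). The labels give no replicate number that the groups share, but the serial numbers of the titles run in 5 blocks of 6, each with 1 array of every group. With these as a replicate block, added after seeing the data, 756 and 617 passed in DMSO, and the named genes that lost their call were C1qc (adjusted p 0.0546), Kif22 (0.051) and Ndufa4 (0.05). Deviations of the 48 h and 24 h arrays of a block correlated at -0.0365 to 0.0338. Signals near background limit the dim genes, such as Acot1 and Lad1.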

Other observations

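Amino acid catabolism moved both ways in the DMSO cultures. Of 45 tested genes of the urea cycle and amino acid breakdown, 5 were higher at 48 h and 7 were lower, with a median of -0.04 (0.12 with spike-in scaling, with 9 higher and 1 lower). Aass, which begins lysine breakdown, averaged 5036 ± 647 at 48 h and 8604 ± 869 at 24 h (SD, n = 5 each), and Hal, which begins histidine breakdown, averaged 1021 ± 140 at 48 h and 1493 ± 96 at 24 h. Csad, an enzyme of taurine synthesis, averaged 8426 ± 521 at 48 h and 6616 ± 417 at 24 h. Gys2, the liver glycogen synthase, had 8985, 8706, 8472, 9467 and 9977 at 48 h, against 6634, 6609, 6465, 7020 and 7359 at 24 h, with no overlap. Psat1, of serine synthesis, changed by 0.34 ± 0.07, and Abcc3, an exporter of conjugates to the blood, by 0.39 ± 0.08 (limma adjusted p = 0.00213 and 0.00252). The adjusted p of Psat1 was 0.0618 with only the DMSO arrays in the fit.

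At the cell surface, Gpc4, a heparan sulphate proteoglycan, had 5840, 5641, 5620, 6497 and 5377 at 48 h, against 10412, 10869, 10883, 12310 and 12183 at 24 h. The junction and adhesion list held 4 higher and 6 lower genes of 42 tested, where 5.10% of all genes were higher and 3.75% lower. It held 2 higher without replicate 1 of 48 h, and 8 higher and 1 lower with spike-in scaling. Epcam, an adhesion molecule of bile duct and progenitor cells, averaged 13477 ± 1078 at 48 h and 10262 ± 694 at 24 h. Of the bile duct keratins, Krt7 lay near or under background, with means of 31 at 48 h and 15 at 24 h, and Krt19 averaged 278 ± 63 at 48 h and 190 ± 56 at 24 h. The sum of the 6 bile duct markers was 21449 to 25431 at 48 h and 17949 to 21088 at 24 h, most of it from Epcam and Anxa4. Cryab, a small heat shock protein, changed by 0.51 ± 0.09. Cpe, a carboxypeptidase that trims peptide hormones, had 35, 180, 182, 158 and 152 at 48 h, against 499, 503, 426, 467 and 334 at 24 h. Serpina3l and Spink1l, both protease inhibitors, averaged 8310 ± 757 and 4498 ± 403 at 48 h, against 23975 ± 1953 and 9996 ± 431 at 24 h. Esm1, a secreted proteoglycan, changed by -1.0 ± 0.16. Among dim genes, Gnat3 and Ttc39a changed by 1.26 ± 0.22 (adjusted p 0.0555 with only the DMSO arrays) and 1.12 ± 0.28, and the transcript Abhd11-as1 by 1.35 ± 0.17.

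Of 21 tested clock genes, 1 was higher and 1 lower at 48 h, near the shares over all genes (5.10% and 3.75%). Tef changed by 0.27 ± 0.08 and Clock by -0.23 ± 0.07. Without single arrays the adjusted p was 0.0536 to 0.13 for Tef (replicates 2, 3 and 4 of either time) and 0.0561 to 0.0894 for Clock (replicates 3 and 5 of 48 h, 4 and 5 of 24 h).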
